A study of Mus musculus with 9 samples.

Results

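Cholesterol synthesis genes were described here by 8 genes, chosen by their symbols from the deposited count table: *Hmgcs1*, *Idi1*, *Fdps*, *Fdft1*, *Sqle*, *Lss*, *Cyp51* and *Srebf2*. They are 8 of the 24421 rows of the table, and each symbol named 1 row. The table holds 9 RNA sequencing libraries from brains of C57BL/6 mice: 3 from control mice, 3 from mice given BAL101553, and 3 whose labels give astrocytes as cell type and BAL101553 as treatment. The tumors were of SB28, a murine glioma line expressing GFP and luciferase; BAL101553 is a prodrug of BAL27862, an agent that activates the spindle assembly checkpoint. The SB28 cells were implanted in the brain of C57BL/6J mice aged 6 to 8 weeks. Whether the libraries labelled astrocytes came from tumor-bearing mice is not stated in the study's text. Control tumors were taken on day 21, and BAL101553-treated tumors on day 33 or day 35, the Results and the Methods of the study giving different days. Treatment and time of growth therefore cannot be told apart. The control and BAL101553 libraries are labelled whole tissue, whereas the methods describe tumor cells sorted as CD45-CD11b-GFP+. The study's text names another deposit for its sequence data, so whether its days and methods hold for these libraries is not certain. The astrocyte group is not named in the study's text, and how its cells were obtained is not given in the sources used here. SB28 is a single line, and whether each library came from its own mouse is not stated, so that p-values measure the spread between libraries, which may be partly technical.

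Cells make cholesterol from acetyl-CoA by the mevalonate pathway. *Hmgcs1* encodes the cytosolic HMG-CoA synthase, near the head of the pathway; *Idi1* and *Fdps* carry the chain on to farnesyl diphosphate, from which other isoprenoids also branch; *Fdft1*, *Sqle*, *Lss* and *Cyp51* encode squalene synthase, squalene epoxidase, lanosterol synthase and lanosterol demethylase. *Srebf2* encodes SREBP2, a transcription factor held in the endoplasmic reticulum while sterols are plentiful, and released to switch on these enzymes when sterols are scarce. In the brain most cholesterol is made locally, since the blood-brain barrier keeps lipoproteins out, and astrocytes and myelinating oligodendrocytes are known for it.

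SREBP2 acts at sterol regulatory elements, usually beside sites for NF-Y and Sp1. RefSeq promoter windows on GRCm38.p6, from 250 bases before to 50 bases after the start of a gene, were found for 5 of the 8 genes, *Hmgcs1*, *Idi1*, *Lss*, *Cyp51* and *Srebf2*. The 3 lines that follow show *Hmgcs1* and *Srebf2*, in whose windows a match to a sterol element was found, and *Lss*, for comparison, as a window with a CCAAT box and no such match. *Idi1* and *Cyp51* also had a CCAAT box and no such match, but their boxes lie past the GENCODE start and are not printed. Capitals mark a sterol regulatory element, TCACCCCAC, or a CCAAT box, which reads ATTGG on the other strand. In *Srebf2* they mark TCACCCCAT, found with the search TCACCCCAN, which was added after the sequences had been read. Each sequence is written in the direction of transcription and stops before the start of the gene in both RefSeq and GENCODE.
Hmgcs1 (chr13:119690101-119690350, plus strand): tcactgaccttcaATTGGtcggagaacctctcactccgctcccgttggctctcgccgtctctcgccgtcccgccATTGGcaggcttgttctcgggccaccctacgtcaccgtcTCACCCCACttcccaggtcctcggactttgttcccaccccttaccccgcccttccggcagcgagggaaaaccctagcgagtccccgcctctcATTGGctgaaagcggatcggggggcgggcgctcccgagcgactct
Srebf2 (chr15:82147019-82147180, plus strand): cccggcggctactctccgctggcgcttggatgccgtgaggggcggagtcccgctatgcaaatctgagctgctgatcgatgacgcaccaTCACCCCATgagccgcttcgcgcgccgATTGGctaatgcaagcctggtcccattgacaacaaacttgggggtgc
Lss (chr10:76531355-76531587, plus strand): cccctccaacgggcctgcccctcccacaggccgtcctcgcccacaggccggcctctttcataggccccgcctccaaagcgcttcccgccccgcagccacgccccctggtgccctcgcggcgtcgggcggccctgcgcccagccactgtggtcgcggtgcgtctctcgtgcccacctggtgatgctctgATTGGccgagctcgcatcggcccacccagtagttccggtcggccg

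Searched on both strands, TCACCCCAC stood in 1 of the 5 windows, that of *Hmgcs1*, where it begins 137 bases before the RefSeq start. It stood in 181 of 32851 windows in the table, or 0.551%. The looser TCACNCCAC found the same *Hmgcs1* site and stood in 1.24% of all windows, and TCACCCCAN stood in 2 of the 5 windows and in 1.55% of all. The CCAAT box was found in 5 of 5 windows and in 37.4% of all, and the Sp1 motif GGGCGG in 5 of 5 and in 35.7% of all. The sterol and lipid lists described below hold 46 genes with a window, these 5 included. Among them the CCAAT box was found for 32, GGGCGG for 36 and TCACCCCAC for 1. The E-box CACGTG was in 0 of the 5 and in 7.15% of all. TCACCCCAC and TCACNCCAC overlap wherever the first occurs, and these matches are letters in a window, not measured binding.

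All 8 genes are protein coding in GENCODE vM21 on GRCm38. The annotation over which reads were counted is not given in the sources used here. *Hmgcs1* (119690379 to 119708260) and *Idi1* (8885501 to 8892451) lie on the plus strand of chromosome 13. *Sqle* (59315077 to 59331192) and *Srebf2* (82147181 to 82205379) lie on the plus strand of chromosome 15, and *Lss* (76531588 to 76557138) on that of chromosome 10. *Fdps* lies on the minus strand of chromosome 3 (89093588 to 89101959), *Fdft1* on that of chromosome 14 (63145150 to 63179578) and *Cyp51* on that of chromosome 5 (4081145 to 4104746).

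Between 22919523 and 34013875 reads were counted per library. The 8 genes together took 0.118% to 0.190% of these reads, and the lowest of their levels, 44.6 CPM for *Lss* in BAL101553 replicate 3, is far above the 3 reads taken as the limit of detection. Levels are CPM, counts per 1000000 reads, with library sizes scaled by TMM over all 9 libraries. The labels were checked against cell type markers. In the controls most of the astrocyte, oligodendrocyte, neuron and endothelial marker sums came from a single gene, so that gene and the sum of the others are given apart. Of 8 astrocyte markers, *Gja1* had 872 to 919.5 CPM in controls, 641 to 736 CPM after BAL101553 and 1385 to 1642 CPM in the libraries labelled astrocytes, and the other 7 summed to 50.2 to 63.4, 40.9 to 64.3 and 11371 to 14034 CPM. Of 6 oligodendrocyte markers, *Cnp* had 12.6 to 16.5 CPM in the control and BAL101553 libraries and 2734 to 3392 CPM in the astrocyte group, where the others summed to 7761 to 9644 CPM against at most 4.42 CPM elsewhere. The 7 microglia and macrophage markers summed to 2.83 to 4.47 CPM in controls, 2.004 to 2.84 CPM after BAL101553 and 434 to 938 CPM in the astrocyte group. Of 6 neuron markers, *Stmn2* had 6.69 to 29.6 CPM in the control and BAL101553 libraries and 3.64 to 4.74 CPM in the astrocyte group, and the others summed to 1.53 to 7.39 and 10.2 to 10.98 CPM. *Rbfox3* was at 0 in every control and BAL101553 library and *Slc17a7* at 0 in every control library. Of 5 endothelial markers, *Cdh5* had 690.2 to 815 CPM in controls, 485 to 564 CPM after BAL101553 and 17.2 to 23.3 CPM in the astrocyte group, and the others summed to 44.6 to 60.3, 50.8 to 90.7 and 152 to 182 CPM. The 5 neutrophil and lymphocyte markers summed to between 0.584 and 20.1 CPM in all 9 libraries, with *Cd3e*, *Nkg7* and *S100a9* at 0 in every control library and *Cd3e* and *S100a9* also in every BAL101553 library. In bulk RNA, fewer cells of a type and less RNA per cell cannot be told apart.

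BAL101553 was first compared with control, to ask whether treated tumors differed in cholesterol synthesis. No difference in the 8 genes passed the test. In edgeR's quasi-likelihood test, with p-values adjusted after Benjamini and Hochberg over 12633 genes, 0 of 8 had an adjusted p under 0.05, while 14.7% of all genes tested did, 8.64% higher and 6.09% lower after BAL101553. At an unadjusted p under 0.05 the count was also 0 of 8, against 4306 of all 12633 genes tested. DESeq2 and limma-trend called 0 of 8 as well, against 2832 and 1916 of all genes tested. The 2 groups overlapped for each of the 8 genes, whereas they did not overlap for 39.7% of all genes tested. The median log2 fold change was -0.03 over the 8 genes and 0.02 over all genes.

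Among the genes of the early pathway, *Hmgcs1* had 60.9, 84.9 and 55.8 CPM in control replicates 1, 2 and 3, and 102, 64.0 and 75.5 CPM in BAL101553 replicates 1, 2 and 3. The highest library was BAL101553 replicate 1 and the lowest control replicate 3, with the others mixed between them. The log2 fold change of *Hmgcs1* was 0.27, with a 95% interval from -0.22 to 0.75 (adjusted p = 0.402, edgeR), the largest of the 8 in either direction. *Idi1*, the isopentenyl diphosphate isomerase, had 118, 134 and 82.5 CPM in controls and 179, 118 and 94.2 CPM after BAL101553. Its groups overlapped widely, with a log2 fold change of 0.24 and a 95% interval from -0.36 to 0.83 (adjusted p = 0.549, edgeR). *Fdps*, the farnesyl diphosphate synthase, had 241, 273 and 227 CPM in controls and 292, 222 and 182 CPM after BAL101553. BAL101553 replicates 1 and 3 were the highest and the lowest of the 6, and the log2 fold change was -0.08, with a 95% interval from -0.48 to 0.31 (adjusted p = 0.756, edgeR).

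Among the genes committed to sterols, *Fdft1* had 157, 159 and 131 CPM in controls and 166, 137 and 102 CPM after BAL101553, a log2 fold change of -0.14 with a 95% interval from -0.54 to 0.27 (adjusted p = 0.616, edgeR). *Sqle*, whose product adds the oxygen to squalene, had 294, 289.5 and 210.2 CPM in controls and 365, 236 and 204 CPM after BAL101553. The group means of *Sqle*, 265 ± 47.2 CPM (SD, n = 3) and 268 ± 85.1 CPM (SD, n = 3), were closer to each other than the libraries within either group. *Lss* had 80.2, 76.5 and 62.7 CPM in controls and 94.0, 69.9 and 44.6 CPM after BAL101553, so that the treated libraries lay on both sides of all controls. *Cyp51* showed the same arrangement, with 268, 228 and 181 CPM in controls and 283, 199.5 and 163 CPM after BAL101553. The 95% intervals of the log2 fold change ran from -0.50 to 0.55 for *Sqle*, from -0.63 to 0.50 for *Lss* and from -0.56 to 0.44 for *Cyp51*. With 3 libraries per group, changes within these bounds were not excluded.

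The regulator *Srebf2* had 398, 469 and 335 CPM in controls and 468, 368 and 359 CPM after BAL101553. The controls averaged 401 ± 66.7 CPM and the treated libraries 398 ± 60.6 CPM (SD, n = 3 each). The 95% interval of its log2 fold change, from -0.36 to 0.35, was the narrowest of the 8, and the adjusted p was 0.992 (edgeR).

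**Figure D1:**
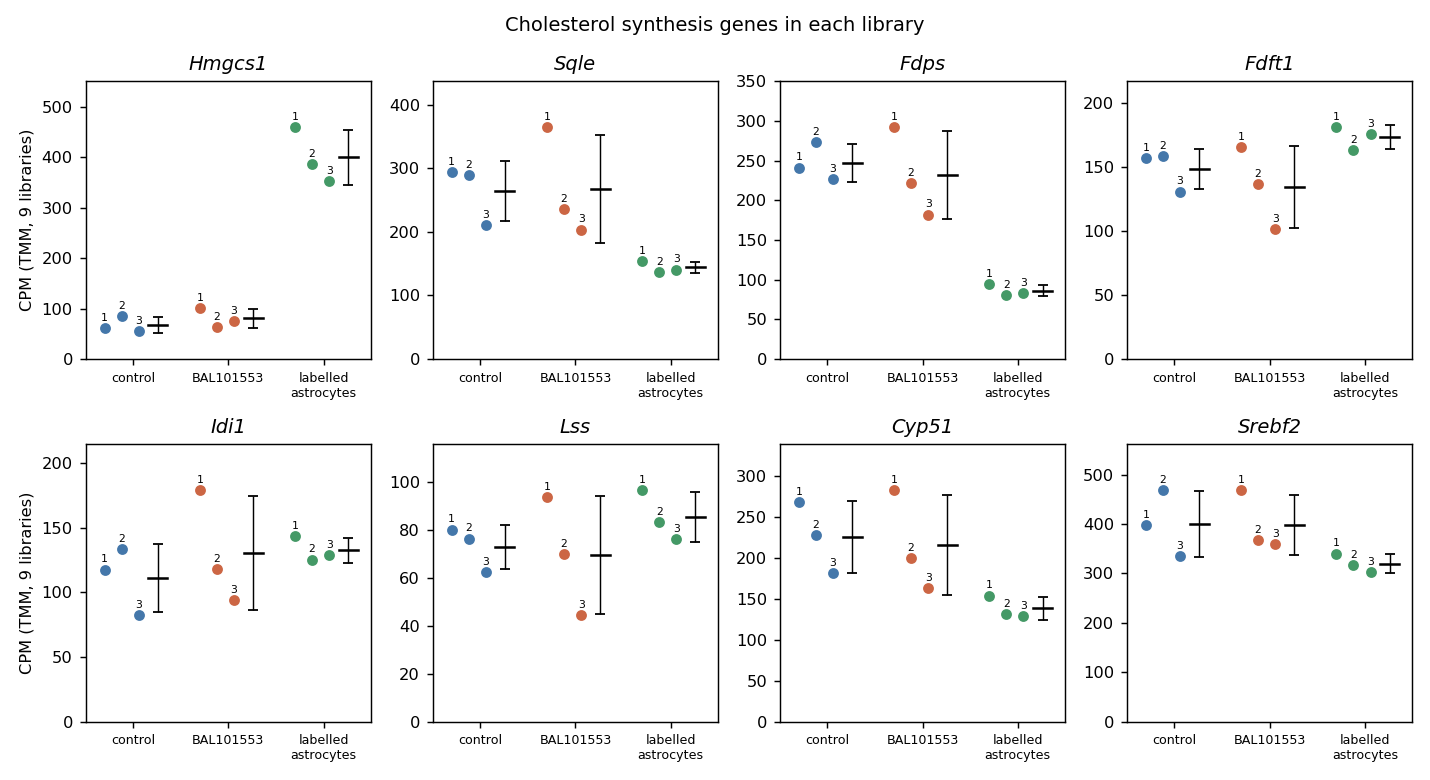
Level of each of the 8 genes in every library, in CPM scaled by TMM on a linear axis from 0; points are libraries with their replicate number, and the bar beside each group is the mean ± SD of 3 libraries. The control and BAL101553 points overlap for every gene, while *Hmgcs1* reaches 354 to 460 CPM in the libraries labelled astrocytes against at most 102 CPM elsewhere.

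Compared per length of the longest principal protein-coding transcript in GENCODE, the 8 genes kept nearly the same order in control and BAL101553 libraries. In controls *Fdps* was highest, at 179 CPM per kb (164 to 198), followed by *Sqle* at 96.0 (76.2 to 107), *Srebf2* at 78.9 (66.0 to 92.3), *Cyp51* at 57.4 (46.0 to 68.1), *Fdft1* at 40.3 (35.4 to 43.0), *Idi1* at 36.8 (27.2 to 44.2), *Hmgcs1* at 19.4 (16.1 to 24.5) and *Lss* at 15.7 CPM per kb (13.4 to 17.2). In this order the neighbours *Sqle* and *Srebf2*, *Srebf2* and *Cyp51*, *Fdft1* and *Idi1*, and *Hmgcs1* and *Lss* overlapped in their ranges over the 3 libraries, and the other neighbours did not. After BAL101553 the order of the means differed by 1 exchange, *Idi1* at 43.1 CPM per kb standing above *Fdft1* at 36.5 CPM per kb, a pair that also overlapped there.

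Within a group, the 8 genes were high or low in the same libraries. BAL101553 replicate 1 was the highest of its group for 8 of 8 genes, although it was the highest for 30.3% of all genes tested. BAL101553 replicate 3 was the lowest of its group for 7 of 8 genes, against 30.6% of all genes, and control replicate 3 was the lowest of its group for 8 of 8, against 28.0% of all genes. The spread this gave was wide: from the lowest to the highest BAL101553 library *Lss* differed 2.10-fold, *Idi1* 1.90-fold, *Sqle* 1.79-fold and *Srebf2*, the steadiest of the 8, 1.30-fold. The summed level of the 8 genes was 1617, 1714 and 1285 CPM in the controls and 1948, 1414 and 1224 CPM in the BAL101553 libraries. The total of BAL101553 replicate 1, 30361908 reads, was the middle one of its group. That of control replicate 3, 26145423 reads, was also the middle one. BAL101553 replicate 3 had the largest total of its group, 34013875 reads. The part of depth in this spread was not tested.

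The same libraries stood apart in some lists of genes outside the 8, but not in all. Of 13 other mevalonate and sterol enzymes, BAL101553 replicate 1 was the highest of its group for 12, and control replicate 3 the lowest of its group for 10. Of 8 genes of fatty acid synthesis that SREBP1 is known to control, BAL101553 replicate 3 was the lowest of its group for 8 and replicate 1 the highest for 6. In 8 enzymes of the isoprenoid branches, BAL101553 replicates 1 and 2 were each the highest of their group for 3 and replicate 3 for 2, and control replicate 3 was the lowest of its group for 5. BAL101553 replicate 1 was the highest for 3 of 7 genes of SREBP processing, 3 of 7 of sterol uptake and 1 of 9 of sterol efflux. In these lists BAL101553 replicate 3 was the lowest for 4, 4 and 2 genes, and control replicate 3 for 3, 4 and 2. Over all genes tested, BAL101553 replicate 1 was the highest for 30.3%. Replicate 3 was the lowest for 30.6%, and control replicate 3 for 28.0%. The genes of a list share their libraries, so these counts describe 6 libraries and are no test.

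**Figure D2:**
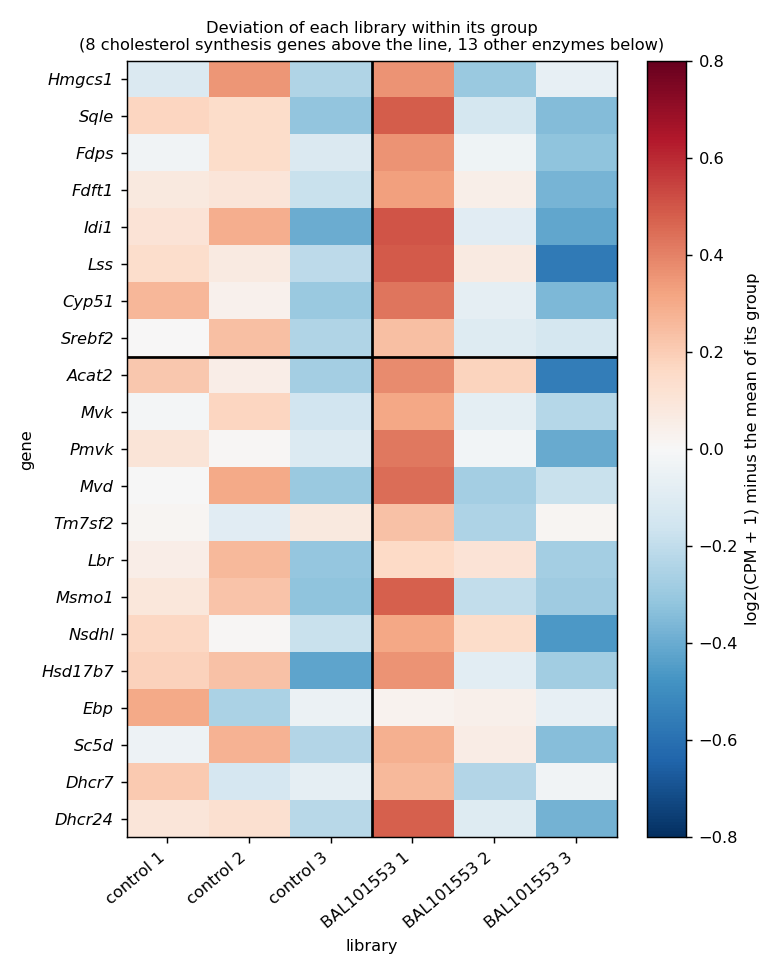
Difference of each library from the mean of its own group on the log2(CPM + 1) scale, for the 8 cholesterol synthesis genes above the line and 13 other enzymes of the pathway below it; red is above and blue below the group mean. BAL101553 replicate 1 is highest in its group for 8 of 8 and 12 of 13 genes, and control replicate 3 lowest in its group for 8 of 8 and 10 of 13.

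The rest of the pathway was read from lists of its enzymes, regulators and transporters. Between BAL101553 and control, 4 of 50 genes tested in 6 lists passed, or 8.0%, against 14.7% of all genes tested. Of the 13 other mevalonate and sterol enzymes, 0 rose and 1 fell, with a median log2 fold change of -0.10. The gene that fell was *Dhcr7*, which encodes a reductase of the last steps to cholesterol. *Dhcr7* had 140.3, 110.4 and 115 CPM in controls and 86.3, 61.0 and 70.6 CPM after BAL101553. All 3 treated libraries lay below all 3 controls, and the log2 fold change was -0.74 (SE 0.15, adjusted p = 0.0201, edgeR). Set against the sum of the 8 genes in the same library, *Dhcr7* amounted to 8.68%, 6.44% and 8.97% in controls and to 4.43%, 4.31% and 5.76% after BAL101553, so that BAL101553 replicate 1 did not stand apart on this scale. Without control replicate 1, control replicate 3 or BAL101553 replicate 3 the adjusted p of *Dhcr7* was 0.0630, 0.0694 and 0.0646.

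Of 7 genes for SREBP processing and sterol sensing, 0 rose and 0 fell in edgeR's test, and their median log2 fold change was 0.004. At an unadjusted p under 0.05 the count was 0 of 7, against 4306 of all 12633 genes tested. *Insig1*, which keeps SREBP in the endoplasmic reticulum, averaged 61.7 ± 11.9 CPM in controls against 64.2 ± 14.1 CPM in treated libraries (SD, n = 3 each), with an adjusted p of 0.838 (edgeR). *Scap*, the escort of SREBP, differed by -0.20 on the log2 scale (adjusted p = 0.156, edgeR), and *Srebf1* by 0.004 (adjusted p = 0.987, edgeR). These 3 genes did not pass with DESeq2 or limma-trend either.

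Of 9 genes for the liver X receptors and sterol efflux, 7 were high enough to be tested, and 3 rose and 0 fell, where 8.64% of all genes tested were higher and 6.09% lower. Their median log2 fold change was 0.63. *Mylip*, a ubiquitin ligase known as a target of the liver X receptors, had 6.66, 7.74 and 6.67 CPM in controls and 14.7, 17.1 and 13.3 CPM after BAL101553. The treated libraries of *Mylip* were all above the controls, at a log2 fold change of 1.10 (SE 0.16, adjusted p = 0.00934, edgeR). *Ch25h*, an enzyme that turns cholesterol into an oxysterol and is also known as an interferon-induced gene, had 0.402, 0.893 and 0.584 CPM in controls (9, 24 and 14 reads) and 2.43, 2.54 and 2.64 CPM after BAL101553 (72, 65 and 91 reads). Its log2 fold change was 2.01 (SE 0.33, adjusted p = 0.0133, edgeR). *Cyp46a1*, which hydroxylates cholesterol for export from the brain, had 0.849, 0.521 and 0.542 CPM in controls (19, 14 and 13 reads) and 1.55, 1.64 and 1.54 CPM after BAL101553 (46, 42 and 53 reads). Its log2 fold change was 1.32 (SE 0.31, adjusted p = 0.0313, edgeR), but it did not pass when any 1 library was left out, with adjusted p from 0.0513 to 0.125. Without control replicate 3 the adjusted p was 0.0516 for *Mylip* and 0.0670 for *Ch25h*. In control 1 and 2 and BAL101553 2 and 3 alone, none of the 4 genes passed, with adjusted p from 0.0781 for *Dhcr7* to 0.206 for *Cyp46a1*; in that setting 1 gene of all passed.

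The 3 other lists also had no gene that passed. The 8 genes of the isoprenoid branches, which make prenyl groups and dolichol or join prenyl groups to proteins, had a median log2 fold change of -0.07. The largest was that of *Pggt1b*, a subunit of a protein prenyltransferase, at 0.37 (adjusted p = 0.136, edgeR). The 7 genes of sterol uptake and transport had a median of 0.22, with *Stard4*, a carrier of cholesterol in the cytosol, at 0.34 (adjusted p = 0.284, edgeR). The 8 genes of fatty acid synthesis had a median of 0.17, with *Acss2*, an acetyl-CoA synthetase, at 0.34 (adjusted p = 0.269, edgeR). Among the marker genes tested between these groups, *Gja1*, *P2ry12* and *Cdh5* were lower and *Slc1a3* higher after BAL101553 at an adjusted p under 0.05 (edgeR). Of the markers tested, 2 of 6 for astrocytes, 1 of 4 for microglia and macrophages and 1 of 5 for endothelium passed. The share over all genes tested was 14.7%. For oligodendrocytes 0 of 4 passed, for neurons 0 of 3 and for neutrophils and lymphocytes 0 of 1. *P2ry12* had 60, 27 and 36 reads in controls and 13, 9 and 20 after BAL101553. Log2 fold changes were positive for 4 of 6 astrocyte, 1 of 4 microglia and macrophage and 2 of 5 endothelial markers. They were positive for 0 of 4 oligodendrocyte, 2 of 3 neuron and 1 of 1 neutrophil and lymphocyte markers. The part of other cell types in these results was not tested.

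**Figure D3:**
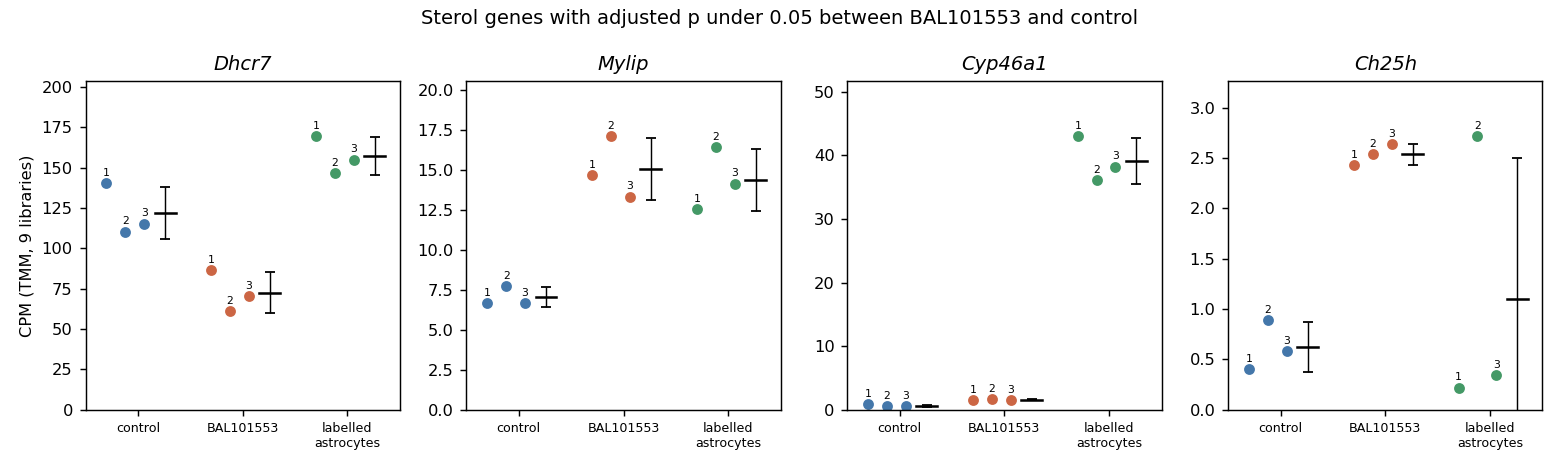
Levels in CPM, scaled by TMM, of the 4 sterol list genes that passed the test of BAL101553 against control (adjusted p under 0.05); points are libraries with their replicate number, bars the mean ± SD of 3 libraries, and each panel has its own linear axis from 0. *Dhcr7* lies lower and *Mylip*, *Cyp46a1* and *Ch25h* higher in all 3 BAL101553 libraries than in all 3 controls.

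The libraries labelled astrocytes were then compared with the BAL101553 libraries, which share their treatment label. The 8 genes did not move as a block. Of the 8, 1 was higher, 4 were lower and 3 did not pass the test, in a comparison in which 85.1% of all 15314 genes tested passed, 46.3% higher and 38.9% lower in the libraries labelled astrocytes. Their median log2 fold change was -0.18, and that of all genes 0.18. The groups did not overlap for the 5 genes that passed, as for 87.9% of all genes. Scaling to total library size or to the upper quartile raised the log2 fold changes of genes tested in both fits by a median of 0.20 and 0.18. Keeping genes with at least 10 counts in every library raised them by a median of 0.23, while the median of all genes kept was 0.02. Smaller differences therefore depend on the scaling and the filter.

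*Hmgcs1* had 460, 387 and 354 CPM in the libraries labelled astrocytes, against 64.0 to 102 CPM after BAL101553. Every one of these libraries was far above every other library of the study. The log2 fold change of *Hmgcs1* was 2.28 (SE 0.19), 4.85-fold, with an adjusted p of 9.93e-06 (edgeR), and it stayed between 2.12 and 2.53 over all 16 alternatives. *Fdps* went the other way, with 94.4, 80.7 and 83.4 CPM against 182 to 292 CPM after BAL101553, a log2 fold change of -1.46 (SE 0.17, adjusted p = 7.00e-05, edgeR). *Sqle* was lower too, at 154, 137 and 141 CPM against 204 to 365 CPM, a log2 fold change of -0.93 (SE 0.21, adjusted p = 0.00296, edgeR). These 3 genes passed in all 16 alternatives. The reads of *Hmgcs1* per read of *Fdps* were 0.253, 0.311 and 0.246 in controls, 0.349, 0.288 and 0.415 after BAL101553 and 4.87, 4.79 and 4.24 in the libraries labelled astrocytes, a ratio within each library that no scaling between libraries changes.

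*Cyp51* had 154, 132 and 129 CPM in the libraries labelled astrocytes, a log2 fold change of -0.67 (SE 0.19, adjusted p = 0.0111, edgeR), and was lost only with the filter of at least 10 counts in every library (adjusted p = 0.0614). *Srebf2* had 339.9, 316 and 303 CPM, a log2 fold change of -0.35 (SE 0.13, adjusted p = 0.0288, edgeR). It passed in 8 of 16 alternatives, with adjusted p up to 0.373, and lost its call without BAL101553 replicate 1, astrocyte replicate 2 or astrocyte replicate 3 (adjusted p = 0.0569, 0.0795 and 0.0951). *Fdft1* had 181, 164 and 176 CPM, with a log2 fold change of 0.33 and a 95% interval from -0.05 to 0.71 (adjusted p = 0.0912, edgeR). It passed in 6 of the 16 alternatives, without BAL101553 replicate 1 at an adjusted p of 0.0146. *Lss* had 96.8, 83.4 and 76.2 CPM and a log2 fold change of 0.27 with a 95% interval from -0.30 to 0.83, and passed without BAL101553 replicate 1 alone (adjusted p = 0.0453). *Idi1* had 144, 125 and 129 CPM and a log2 fold change of -0.01 with a 95% interval from -0.51 to 0.49, whose sign turned with the scaling (0.20 with total library size). Against the control libraries 88.3% of 15207 genes passed and the 5 genes that passed were *Hmgcs1*, *Fdps*, *Sqle*, *Cyp51* and *Srebf2*, with log2 fold changes of 2.53, -1.56, -0.92, -0.75 and -0.37. This comparison uses the same 3 astrocyte libraries.

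**Figure D4:**
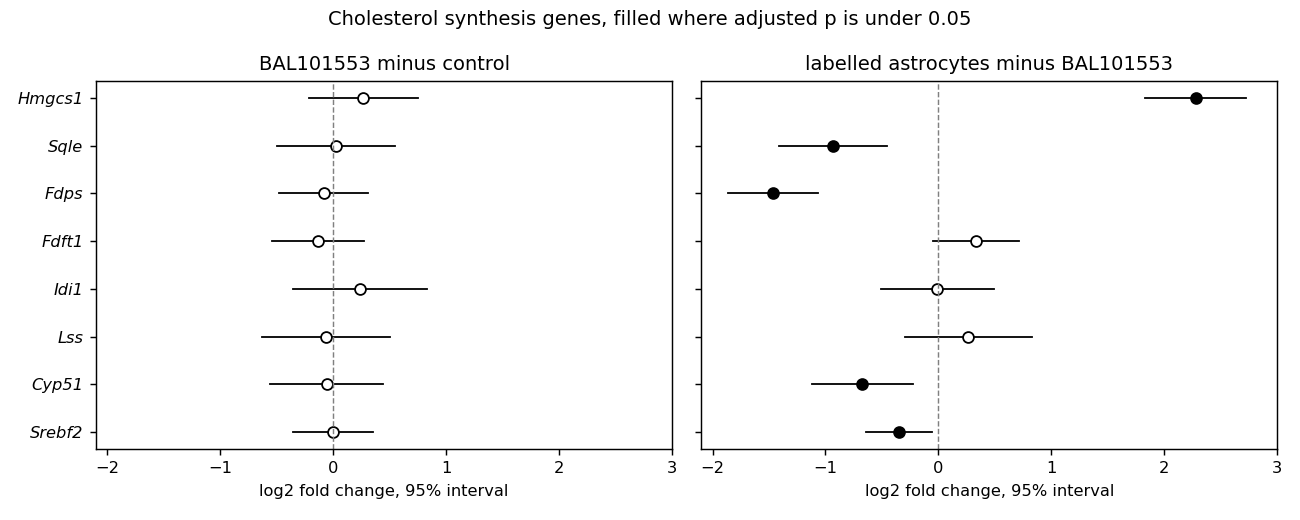
Log2 fold change of the 8 genes with its 95% interval (n = 3 libraries per group), BAL101553 minus control on the left and labelled astrocytes minus BAL101553 on the right; filled points have an adjusted p under 0.05. All 8 intervals on the left cross 0, and on the right *Hmgcs1* lies above 0 at 2.28 and *Fdps*, *Sqle*, *Cyp51* and *Srebf2* below it.

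On the scale of CPM per kb, *Hmgcs1* thus stood first of the 8 in the libraries labelled astrocytes, at 116 CPM per kb (102 to 133), whereas it was seventh of 8 in both other groups. *Srebf2* at 63.0 (59.7 to 67.0) and *Fdps* at 62.3 CPM per kb (58.4 to 68.3) followed with overlapping ranges, then *Sqle* at 52.3 (49.8 to 55.9), *Fdft1* at 47.0 (44.2 to 49.0), *Idi1* at 43.9 (41.4 to 47.5), *Cyp51* at 35.2 (32.9 to 39.1) and *Lss* at 18.3 CPM per kb (16.3 to 20.7). Apart from *Srebf2* and *Fdps*, only *Fdft1* and *Idi1* overlapped among these neighbours. The sum of the 8 genes was nevertheless alike in size, at 1624, 1425 and 1392 CPM, within the range of the control and BAL101553 libraries. *Hmgcs1* made up 25.4% to 28.3% of the sum there and 3.77% to 6.17% elsewhere.

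The other enzymes of the pathway were split as well. Of the 13, 5 were higher and 5 lower in the libraries labelled astrocytes than after BAL101553, with a median log2 fold change of 0.34. *Dhcr7* was higher, at 169.7, 147 and 155 CPM, with a log2 fold change of 1.08 (SE 0.14, adjusted p = 1.26e-04, edgeR). Against control, where *Dhcr7* was higher than after BAL101553, the log2 fold change was 0.32 (SE 0.11, adjusted p = 0.0185, edgeR). Of the 8 isoprenoid branch enzymes 2 were higher and 3 lower. Of 7 genes for SREBP processing and sterol sensing 4 were higher and 2 lower, among the former *Insig1* (log2 fold change 2.04, SE 0.16), *Srebf1* (2.33, SE 0.14) and *Scap* (0.91, SE 0.08). Of 7 genes of sterol uptake and transport 1 was higher and 6 lower, including *Stard4* (log2 fold change -1.56, SE 0.20). Of 9 genes for the liver X receptors and sterol efflux 7 were higher and 0 lower; *Cyp46a1* was 24.2-fold higher than after BAL101553 and 59.9-fold higher than in controls, while *Mylip* (adjusted p = 0.560, edgeR) and *Ch25h* (adjusted p = 0.168, edgeR; 7, 77 and 9 reads) did not pass. Of 8 genes of fatty acid synthesis 6 were higher and 2 lower, with *Acss2* at 129 ± 3.36 CPM (SD, n = 3) against 10.9 ± 2.55 CPM (SD, n = 3). With 85.1% of all genes called, these shares describe 2 kinds of cell sample. The oligodendrocyte, astrocyte and microglia and macrophage markers were higher here for 6 of 6, 8 of 8 and 7 of 7 genes. Their part in the levels of the sterol genes was not tested.

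**Figure D5:**
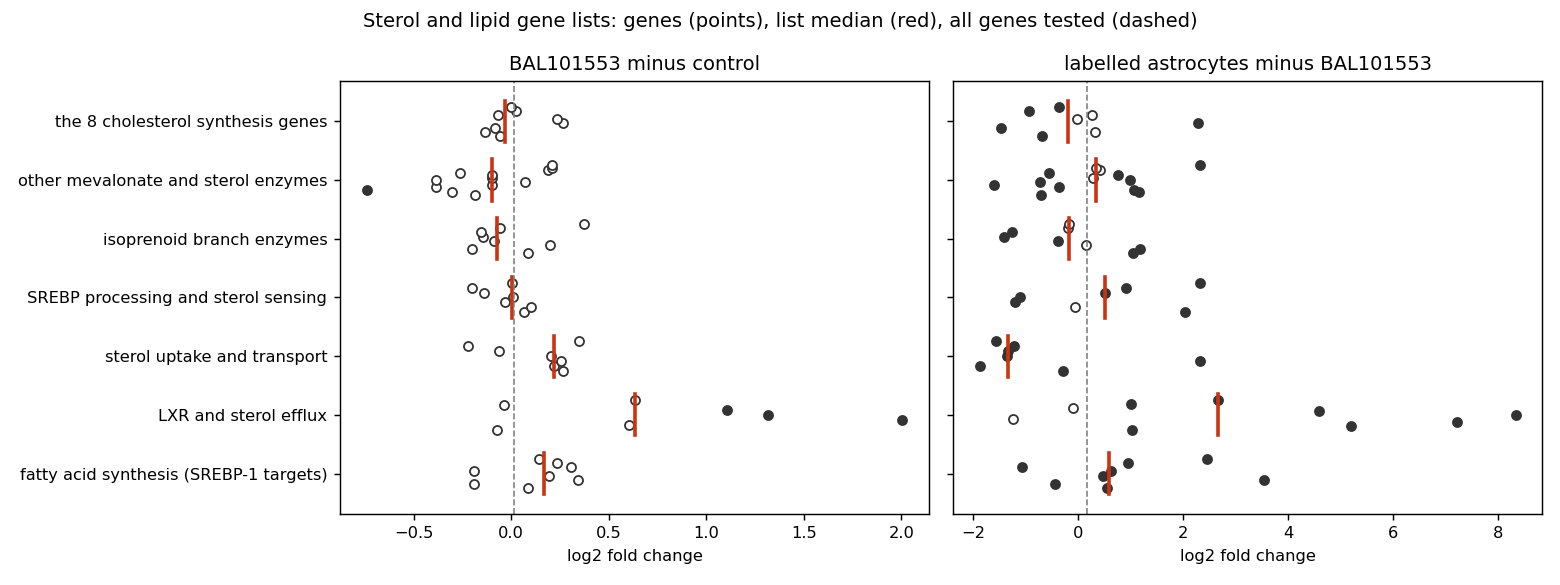
Log2 fold changes of the genes of each sterol or lipid list, BAL101553 minus control on the left and labelled astrocytes minus BAL101553 on the right; points are genes tested, filled where the adjusted p is under 0.05, the red bar is the list's median and the dashed line the median of all genes tested (0.02 and 0.18). On the left, 4 genes are filled and none of them is among the 8; on the right, the 8 genes run from -1.46 to 2.28. The left and right axes differ in scale.

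The profile of the 8 was taken as the median of their centred log2 levels in each library. The genes outside the lists whose profile was most like this median profile were *Brox*, *Tada2b*, *Abhd5*, *Mettl14* and *Dlg1*. The root mean square difference of their centred log2 levels from that profile over 9 libraries was 0.11 for *Brox*, 0.12 for *Tada2b* and *Abhd5* and 0.14 for *Mettl14* and *Dlg1*, out of 10083 genes with a mean of at least 10 CPM. *Brox* had means of 85.5, 87.6 and 77.2 CPM in the control, BAL101553 and astrocyte groups. On the same measure *Srebf2* differed from the median profile by 0.13, *Idi1* by 0.18, *Fdft1* by 0.21, *Lss* by 0.22 and *Cyp51* by 0.27. *Sqle* differed by 0.36, *Fdps* by 0.64 and *Hmgcs1* by 1.21. Of the 8 genes, from which the median itself was taken, *Srebf2* thus lay closest to it and *Hmgcs1* farthest.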

How the data were processed

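RNA was extracted from ex vivo brain samples of 9 libraries, and the authors deposited a table of whole-number read counts per gene, not normalized. Per the submitters' processing notes, reads were mapped to mm10 with TopHat and counted with HTSeq 0.6.1. The annotation, the use of strand in counting and the treatment of reads shared between near-identical genes are not given in the sources used here. The study states 2 samples per group, whereas 3 libraries per group are held in the table. Names of 27 of the 24421 rows had turned into dates; they never exceeded 0.440% of a library's counts and stayed in library sizes and tests. The number of count columns that belong to no sample was 0.

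Samples were grouped by their labels. In R 4.3.3, edgeR 4.0.16 was run with filterByExpr, TMM, the quasi-likelihood test (two-sided) and Benjamini-Hochberg adjustment over all genes tested, with a threshold of 0.05 and only the compared groups in a fit. Intervals are 95% intervals from the same fit. Depth lay between 22919523 and 34013875 counts per library, so that counting error is small beside the spread between libraries for genes with many reads. Chi-square per degree of freedom between libraries of a group was 14.3 to 64.9, more than sampling noise, and each library was counted as a replicate.

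The 8 genes and all gene lists were chosen with earlier results of these data known. Named are the 8 genes, list genes that passed between BAL101553 and control, the gene with the largest fold in each list, *Insig1*, *Scap* and *Srebf1*, and the 5 genes of most similar profile; a few genes of these lists are not reported here and were left out of the lists; markers named alone were chosen after their values were seen. Alternatives were DESeq2 1.42.0, limma-trend (limma 3.58.1, prior count 2), 3 other scalings, 2 other filters (at least 1 count in any library, at least 10 in every library), all 9 libraries in a single model, the replicate number as a block, each library left out, control as the reference group for the libraries labelled astrocytes, and control 1 and 2 with BAL101553 2 and 3. Positions and transcript lengths are from GENCODE vM21 on GRCm38, promoter windows from RefSeq on GRCm38.p6; for *Sqle*, *Fdps* and *Fdft1* no window was used here.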

Additional observations from a re-analysis of the deposited data

How the results depend on the processing

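The count of 0 of 8 cholesterol synthesis genes between BAL101553 and control was the same in 16 of 16 alternatives. The count over all genes, 1860, was 2832 with DESeq2, 3022 with all 9 libraries in a single model and 1 in control 1 and 2 with BAL101553 2 and 3; leaving out single libraries gave 193 (control replicate 3) to 1712 (BAL101553 replicate 2), with 458 without control replicate 1, 668 without BAL101553 replicate 3 and 1133 without BAL101553 replicate 1. Of the genes that passed, 58.7% were higher after BAL101553 with TMM and 77.4% with total library size, which moved the median of all genes by 0.09. Between the libraries labelled astrocytes and BAL101553, 5 of the 8 passed, and 4 to 6 in the alternatives.

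The sign of small log2 fold changes that did not pass turned in some settings; the cause was not tested. For BAL101553 against control, total library size gave 0.022 for *Cyp51*, 0.012 for *Lss* and 0.081 for *Srebf2*. For *Srebf2* the value was 0.0079 with upper quartile scaling, 0.0069 with at least 10 counts in every library, 0.00081 with limma-trend and 0.0011 with the replicate block. *Sqle* was at -0.0032 with limma-trend and -0.0032 with the replicate block. *Srebf1* was at -0.0058 with DESeq2's size factors, -0.0058 with DESeq2, -0.0022 with limma-trend, -0.0034 with all 9 libraries and -0.0020 with the replicate block. Control 1 and 2 with BAL101553 2 and 3 gave -0.061 for *Hmgcs1*, -0.41 for *Sqle*, -0.24 for *Idi1*, -0.28 for *Insig1*, -0.15 for *Srebf1* and -0.020 for *Stard4*. With single libraries left out the range was -0.26 to 0.19 for *Sqle*, -0.28 to 0.066 for *Fdps*, -0.31 to 0.033 for *Fdft1*, -0.062 to 0.43 for *Idi1*, -0.35 to 0.17 for *Lss*, -0.31 to 0.11 for *Cyp51*, -0.14 to 0.12 for *Srebf2*, -0.13 to 0.19 for *Insig1* and -0.12 to 0.10 for *Srebf1*.

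For the libraries labelled astrocytes against BAL101553, *Idi1* was at 0.040 with DESeq2's size factors, DESeq2 and limma-trend, 0.039 with the replicate block, 0.20 with total library size, 0.17 with upper quartile scaling, 0.22 with at least 10 counts in every library, 0.025 with all 9 libraries and 0.21 against control, and between -0.19 and 0.27 with single libraries left out. *Mylip* was at 0.11, 0.082, 0.13 and 0.99 with total library size, upper quartile scaling, at least 10 counts in every library and control as the reference group, and *Pggt1b* at 0.042, 0.018, 0.067 and 0.19 in the same settings. *Ch25h* was at 0.74 against control, and its value against BAL101553 rested on astrocyte replicate 2, without which it was -3.19 with an adjusted p of 1.81e-04 (edgeR).

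Replicate numbers are shared between groups, but same-numbered libraries did not deviate together in every pair (r of 0.16, -0.02 and 0.16 between BAL101553 and control), so that the numbers were not taken to pair the samples. With the replicate number as a block, 1371 genes passed between BAL101553 and control and 12815 between the libraries labelled astrocytes and BAL101553, with 0 and 5 of the 8; *Cyp46a1* then had an adjusted p of 0.0572 (edgeR). With 3 libraries per group, the upper bounds of the 95% intervals of the 8 genes lay between 0.27 and 0.83 on the log2 scale. Changes inside the interval of a gene were not excluded.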
